A study of Mus musculus with 2 samples.

Results

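The genes described here are 6 matrix metalloproteinases (MMPs), the related protease Adam8 and 3 tissue inhibitors of metalloproteinases (TIMPs), chosen by gene symbol as a protease and inhibitor set. All 10 were measured, each by 1 probe set of its own, of 19938 mouse genes with a probe set. Signals come from 2 arrays, 1 of colonic macrophages from mice given dextran sulfate sodium (DSS) at 3% (wt/vol) in the drinking water for 5 days and 1 of colonic macrophages from mice given drinking water alone for 5 days. DSS, a sulfated sugar polymer, damages the epithelium of the colon and serves to induce colitis in mice. Both groups were sorted from the lamina propria, the connective tissue under the gut epithelium, as cells that bore CD45, CD11b, F4/80 and the MHC class II antigen IAb and lacked CD103. The labels name no strain or age, nor the number of mice behind an array.

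MMPs are zinc-dependent enzymes that cut collagens, elastin and other proteins of the extracellular matrix, and they also process cytokines, chemokines and cell surface proteins. Most are secreted as inactive proenzymes that are opened outside the cell, and TIMPs block the active enzymes by binding their catalytic site. In the inflamed gut, neutrophils, macrophages and fibroblasts are all known sources of MMPs, and mucosal damage has been tied to their excess over TIMPs.

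All values are log2 signals as the authors deposited them, and a difference is the DSS signal minus the control signal on that scale. Each group has 1 array and so neither a replicate error nor a test, and each difference compares these arrays and not the conditions. A level on a bulk array cannot tell apart fewer cells of a type and less RNA per cell. The median signal was 5.62 on the DSS array and 5.70 on the control array. The table has no detection calls, so a signal near or below the median cannot be told from background. All 10 genes reached the median on at least 1 array, and 2 of them, Mmp8 and Timp1, did so on the DSS array alone.

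The set divided between higher and lower genes. On the DSS array 4 of the 10 were at least 2-fold higher (Mmp8, Adam8, Timp1 and Mmp9), against 2.25% of all genes, and 2 were at least 2-fold lower (Timp2 and Mmp13), against 1.72% of all genes. Among the 11163 genes that reached the median on at least 1 array, the same shares were 3.99% and 3.03%. The other 4 (Mmp14, Mmp19, Mmp12 and Timp3) lay within 2-fold. Proteases and inhibitors were found on both sides, and the median difference of the 10 was 0.49, beside -0.06 over all genes and -0.03 over the 11163. At 1.5-fold, 5 genes were higher, with Mmp14 added, against 5.76% of all genes, and the same 2 were lower, against 5.33%. At 3-fold, Mmp8 and Adam8 were higher, against 0.918% of all genes, and 0 were lower, against 0.592%. The genes were proposed with earlier results of these arrays known, so these shares describe them and test nothing.

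**Figure D1:**
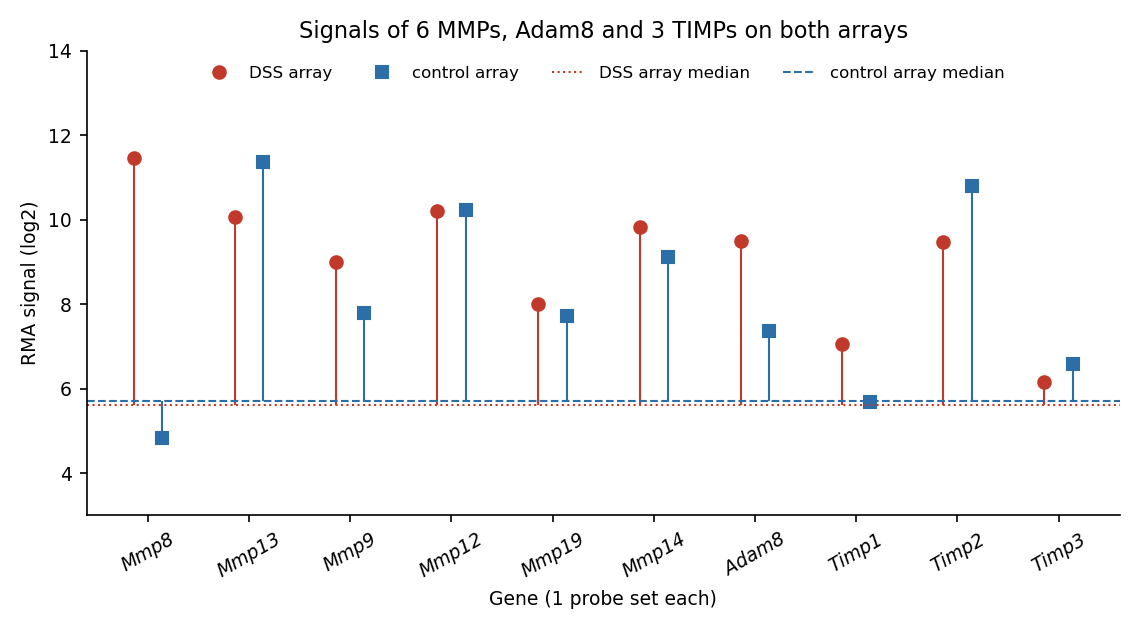
Log2 RMA signal (vertical axis) of each of the 10 genes on the DSS array (red circles) and the control array (blue squares), 1 array each and therefore without error bars; stems start at each array's median (dotted 5.62 for DSS, dashed 5.70 for control). Mmp8 stands below the median on the control array and far above it on the DSS array, while Mmp13 and Timp2 are high on both arrays and lower in DSS.

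Collagenases open the triple helix of fibrillar collagen, and the 2 in the set went in opposite directions. Mmp8, the collagenase that neutrophils store in their granules, read 11.47 on the DSS array and 4.82 on the control array (probe set 10583100). This was the highest difference of all 19938 genes, 6.65, or 100.3-fold. Its control signal was 0.88 below that array's median, so the fold starts from a signal that cannot be told from background and is not exact. Mmp13, the main interstitial collagenase of rodents, read 10.06 on the DSS array and 11.36 on the control array (probe set 10583044). That is 2.47-fold lower in DSS, with 203 genes further down, and both signals were more than 4 log2 units above their array's median. The other collagenase genes on the array, Mmp1a and Mmp1b, were dim on both arrays, at 4.02 and 3.76 in DSS and 3.99 and 3.73 in control.

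Gelatinases digest collagen that has already been unwound, and the type IV collagen of basement membranes. Mmp9, or gelatinase B, read 8.99 on the DSS array and 7.80 on the control array, a difference of 1.20 or 2.29-fold, and 327 genes had a higher one. Mmp2, or gelatinase A, is outside the set and read 7.42 on the DSS array and 8.41 on the control array, a difference of -0.99. The signals of both gelatinases lay above the median on both arrays. Lcn2, a lipocalin known in human neutrophils to form a complex with MMP-9, read 11.59 on the DSS array and 5.58 on the control array.

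Mmp12, the macrophage elastase, which degrades elastin, had nearly the same signal on both arrays. It read 10.20 on the DSS array and 10.22 on the control array. The difference of -0.02 turned to 0.06 when each array was centred on its median, so no direction is given. Mmp19, a secreted MMP that acts on basement membrane proteins, read 7.998 on the DSS array and 7.710 on the control array, a difference of 0.29. As a scale for such small differences, the pooled SD between probe sets of 1 gene was 0.28, over 638 genes with several probe sets. The robust SD of all differences past the median rule was 0.39. Neither measures the error of a difference, since no replicate arrays enter them.

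Mmp14, or MT1-MMP, is anchored in the cell membrane, cuts collagen at the cell surface and opens the proenzyme of MMP-2 in a complex with TIMP2. Mmp14 read 9.82 on the DSS array and 9.12 on the control array, a difference of 0.70 or 1.63-fold. Its partners Timp2 and Mmp2 were on the other side, at -1.33 and -0.99. The 3 genes of this activation complex thus lay on both sides of 0 on these arrays. Among other membrane-type genes, Mmp25, also called leukolysin and known from neutrophils, read 6.54 on the DSS array and 5.59 on the control array, while Mmp16, Mmp17 and Mmp24 had differences of 0.09, 0.17 and -0.25.

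Adam8 encodes a membrane protease of myeloid cells, known as CD156, that sheds proteins from the cell surface. It read 9.50 on the DSS array and 7.36 on the control array (probe set 10568873), both above the median. The difference of 2.14, or 4.41-fold, was exceeded by 110 genes, among them Mmp8. No other ADAM gene of the list was 2-fold higher: Adam10 and Adam17, the main sheddases of most cells, had differences of 0.34 and 0.17. Adam19 was at least 2-fold lower, at 8.31 on the DSS array and 9.35 on the control array. Adam33, Adamdec1 and Adam15 followed at -0.90, -0.82 and -0.79.

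The 3 inhibitors were found in 3 different positions. Timp1, the inducible TIMP, which also binds the proenzyme of MMP-9, read 7.06 on the DSS array and 5.68 on the control array. The difference was 1.38, or 2.60-fold, with 244 genes higher still, and the control signal lay 0.03 below the control array's median. As for Mmp8, the fold starts from a signal that cannot be told from background and is not exact. Timp2, which inhibits most MMPs and takes part in the activation of MMP-2, read 9.46 on the DSS array and 10.80 on the control array. It was 2.52-fold lower, with 196 genes further down, close to Mmp13 in the order of all genes. Timp3, the TIMP that binds to the matrix and also inhibits ADAM17, read 6.17 on the DSS array and 6.59 on the control array, a difference of -0.42 from signals less than 1 log2 unit above the medians. Timp4, Reck (a membrane-anchored MMP inhibitor) and A2m (a plasma protease inhibitor) were below the median on both arrays.

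**Figure D2:**
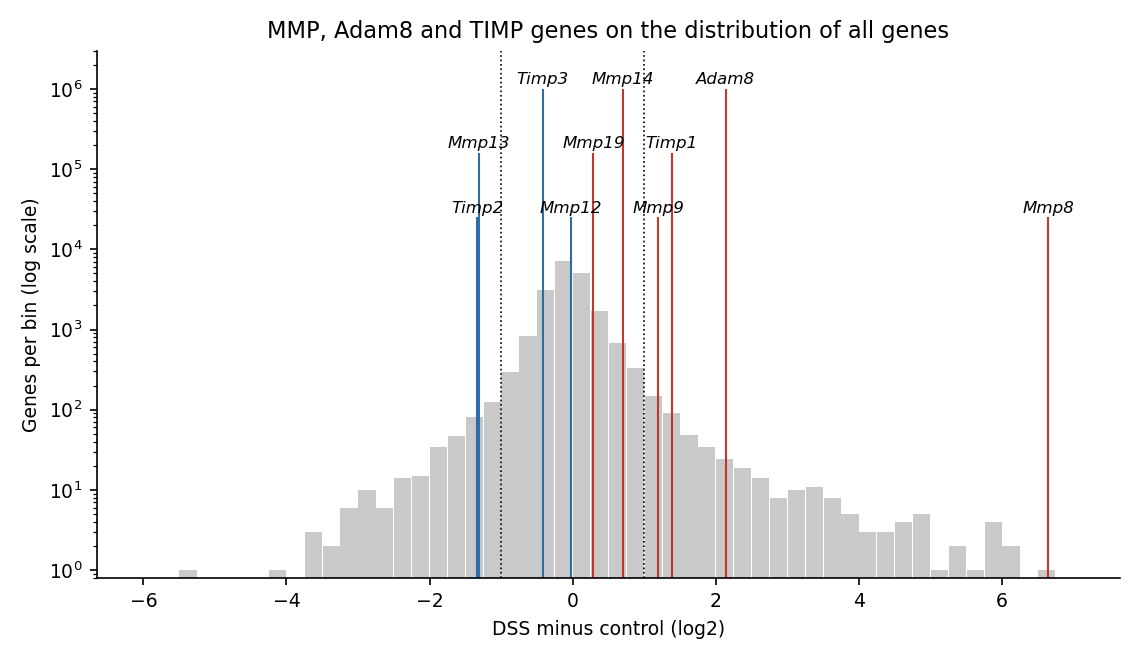
Number of genes (vertical axis, log scale) per 0.25-wide bin of the DSS minus control difference (horizontal axis, log2) over all 19938 genes, with the 10 genes as labelled lines (red above 0, blue below 0) and 2-fold as dotted lines; line height has no meaning. Mmp8 lies alone at the right end at 6.65, Adam8 at 2.14, and Timp2 and Mmp13 nearly coincide at -1.33 and -1.31.

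Set against each other within the arrays, the proteases and the inhibitors differed by unequal amounts. Against Timp1, the difference of Mmp9 was 0.18 lower. Those of Mmp14, Mmp19, Mmp12 and Mmp13 were lower by 0.68, 1.09, 1.41 and 2.69. Those of Adam8 and Mmp8 were higher, by 0.76 and 5.27. None of these values is exact, because the control signal of Timp1, like that of Mmp8, cannot be told from background. Against Timp2, the difference of Mmp9 was 2.53 higher and that of Mmp14 was 2.03 higher. Mmp13 and Timp2 differed by 0.03 on this measure. These are comparisons of differences and not of amounts, since signals of different probe sets are not on 1 scale.

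Mmp8, Mmp12 and Mmp13 belong to a run of 10 Mmp genes on mouse chromosome 9, all of them measured. In the order of the chromosome these are Mmp13, Mmp12, Mmp1b, Mmp3, Mmp1a, Mmp10, Mmp8, Mmp27, Mmp20 and Mmp7. The 7 others in the run lay within 2-fold, with differences of -0.19 to 0.42, and 4 of them were below the median on both arrays. Mmp10 and Mmp27, the neighbours of Mmp8 on either side, read 6.25 and 5.86 on the DSS array and 6.05 and 5.75 on the control array. Mmp12 lies next to Mmp13 and had a difference of -0.02 beside -1.31. The difference of 6.65 at Mmp8 was therefore not shared by the genes beside it.

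**Figure D3:**
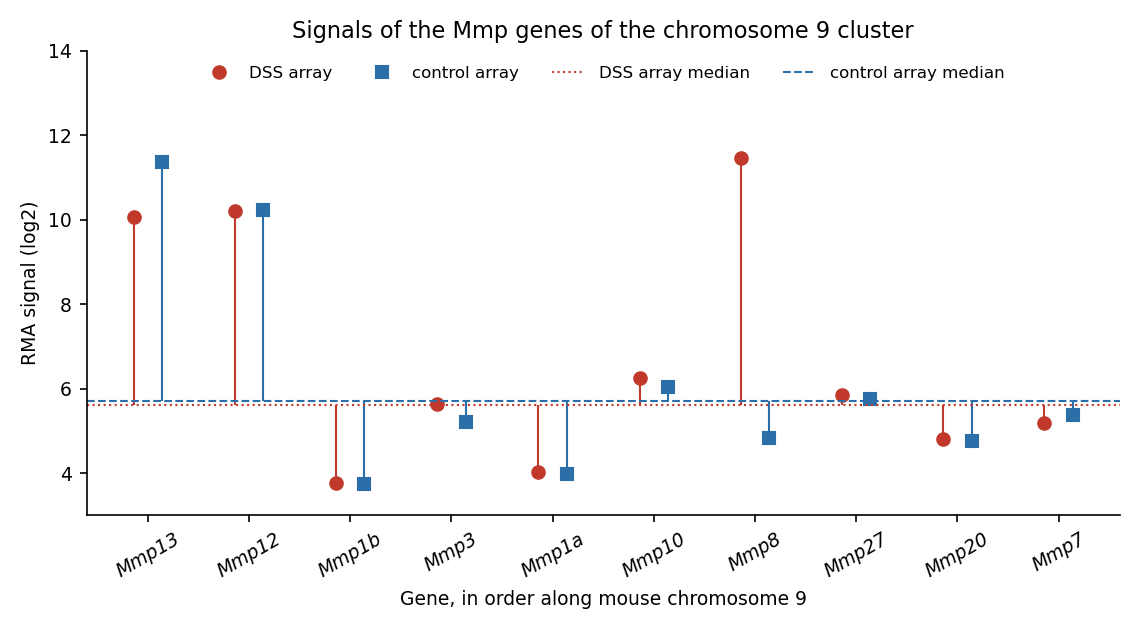
Log2 RMA signal (vertical axis) of the 10 Mmp genes of the chromosome 9 run, in genome order, on the DSS array (red circles) and the control array (blue squares), 1 array each; stems start at the array medians. Only Mmp8 is far from its control signal, Mmp13 is lower in DSS, Mmp12 has close signals, and the 7 others lie between 3.73 and 6.25.

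Timp1 and Timp3 sit inside introns of synapsin genes, which encode proteins of nerve terminals, and the host genes stayed within 2-fold. Syn1, which holds Timp1, read 5.19 on the DSS array and 5.33 on the control array, a difference of -0.15 beside the 1.38 of Timp1. Syn3, which holds Timp3, read 5.08 on the DSS array and 5.05 on the control array. Both hosts were below the median on both arrays.

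The sequence just upstream of the starts of some of the 10 genes is shown. The promoter of several MMP genes is known to carry a site for AP-1, the Fos and Jun family of factors that respond to cytokines and stress. RefSeq windows (build GRCm38.p6) matched 8 of the 10 genes, with Mmp9 and Mmp19 not matched, and Mmp12 had 2 annotated starts. The windows below hold the 250 bases before the start, 5′ to 3′ on the strand of the gene. In the first 4, capitals mark the AP-1 letters TGANTCA, which read the same on both strands apart from the middle base. In the Timp windows, capitals mark the PEA3 letters AGGAAG, a site of ETS factors, searched on both strands; matches to them in the Mmp windows are left in lower case.
Mmp8 (chr9:7558179-7558428, plus strand): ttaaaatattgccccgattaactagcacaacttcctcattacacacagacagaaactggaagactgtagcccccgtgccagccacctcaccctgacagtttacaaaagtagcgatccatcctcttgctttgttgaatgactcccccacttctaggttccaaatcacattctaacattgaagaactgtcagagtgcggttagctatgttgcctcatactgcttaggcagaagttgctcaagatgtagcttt
Mmp13 (chr9:7272264-7272513, plus strand): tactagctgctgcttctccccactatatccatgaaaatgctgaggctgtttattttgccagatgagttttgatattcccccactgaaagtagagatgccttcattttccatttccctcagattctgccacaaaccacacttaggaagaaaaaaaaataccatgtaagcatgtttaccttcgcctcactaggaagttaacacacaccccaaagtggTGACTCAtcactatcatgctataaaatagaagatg
Mmp12 first start (chr9:7344147-7344396, plus strand): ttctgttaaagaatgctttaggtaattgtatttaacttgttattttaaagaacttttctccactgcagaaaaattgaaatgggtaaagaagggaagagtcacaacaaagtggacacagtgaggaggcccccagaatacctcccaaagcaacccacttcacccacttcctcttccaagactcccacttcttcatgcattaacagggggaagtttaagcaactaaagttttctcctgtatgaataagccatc
Mmp12 second start (chr9:7347124-7347373, plus strand): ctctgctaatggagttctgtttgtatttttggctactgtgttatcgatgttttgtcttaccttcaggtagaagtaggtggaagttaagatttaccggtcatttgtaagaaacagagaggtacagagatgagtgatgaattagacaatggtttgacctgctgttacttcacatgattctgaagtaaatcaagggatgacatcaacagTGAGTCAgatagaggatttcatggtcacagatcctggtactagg
Timp1 (chrX:20869916-20870165, plus strand): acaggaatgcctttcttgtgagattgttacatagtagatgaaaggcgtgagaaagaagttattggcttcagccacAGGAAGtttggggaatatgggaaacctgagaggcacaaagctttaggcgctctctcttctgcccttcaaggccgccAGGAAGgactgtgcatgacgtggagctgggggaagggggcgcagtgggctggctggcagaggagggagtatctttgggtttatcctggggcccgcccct
Timp2 (chr11:118355412-118355661, minus strand): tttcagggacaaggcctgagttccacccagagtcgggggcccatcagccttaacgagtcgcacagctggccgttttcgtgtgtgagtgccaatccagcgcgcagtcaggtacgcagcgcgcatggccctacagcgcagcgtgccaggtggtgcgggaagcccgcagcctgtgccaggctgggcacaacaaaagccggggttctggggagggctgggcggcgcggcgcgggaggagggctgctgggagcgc

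The AP-1 letters were found for 8 of the 10 genes of the chromosome 9 run. By window, they were in 8 of its 12 windows and in 6.75% of all 32851 windows. The Mmp13 match begins 35 bases before the start and that of the second Mmp12 start 44 bases before it. Mmp8 and its neighbour Mmp27 are the 2 genes of the run without these letters in the window. Mmp8 had the highest difference of the run, and Mmp27 had one of 0.11. Mmp13, past 2-fold in the other direction, has the letters, as do Mmp12, Mmp3, Mmp10, Mmp1a, Mmp1b, Mmp7 and Mmp20, all within 2-fold. Of these, Mmp1a, Mmp1b, Mmp7 and Mmp20 were below the median on both arrays, where a signal cannot be told from background. Whether the letters bear on the differences was not tested. No window of the other 14 matched MMP, Adam8 and inhibitor genes held the letters. The PEA3 letters were found for 6 of the 8 matched genes, in 6 of their 9 windows, beside 29.5% of all windows. The genes with them were Mmp8, Mmp12, Mmp13, Mmp14, Timp1 and Timp3, some higher and some lower in DSS. Adam8 and Timp2 had none. The PEA3 letters begin 175 and 99 bases before the start of Timp1, 109 and 62 bases before that of Mmp13 and 204 bases before that of Timp3. The Timp2 window has 21 CpG pairs, that of Timp1 6, and those of the chromosome 9 run 0 to 7, beside a median of 6 over all windows. These matches describe letters and show no binding.

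Of the factors named above, Jun read 9.81 on the DSS array and 11.29 on the control array, a difference of -1.49, the only one of 12 measured regulator genes at least 2-fold apart. Fosl1, Fosb and Ets2, members of the same families, had differences of 0.58, -0.60 and 0.55. Among cytokine and prostaglandin genes that can raise MMP expression, Il6 read 8.98 on the DSS array and 6.42 on the control array, and it was the only one of 7 at least 2-fold apart. Osm, Ptgs2 and Il1b had differences of 0.91, 0.76 and 0.68, and Tnf one of -0.03.

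Over the wider family, most genes differed little or were dim. Of 23 listed MMP genes 22 were measured, with 2 at least 2-fold higher in DSS, 1 lower and 19 between, and a median of 0.03. The 16 measured MMPs outside the set were all within 2-fold, and 10 of them lay below the median on both arrays. Of 18 measured ADAM and ADAMTS genes 1 was higher (Adam8) and 1 lower (Adam19). Adamts1, which cleaves proteoglycans, had the largest difference of the ADAMTS list, 0.74, from a control signal below that array's median. The list of 9 measured genes of the plasminogen system and of proteases linked to proenzyme activation, which also holds a receptor and an inhibitor, had 1 gene at least 2-fold lower and 0 higher. It was Plau, or urokinase, which makes plasmin that can open MMP proenzymes, at 8.99 on the DSS array and 10.64 on the control array. Its receptor Plaur read 10.24 on the DSS array and 9.67 on the control array.

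**Figure D4:**
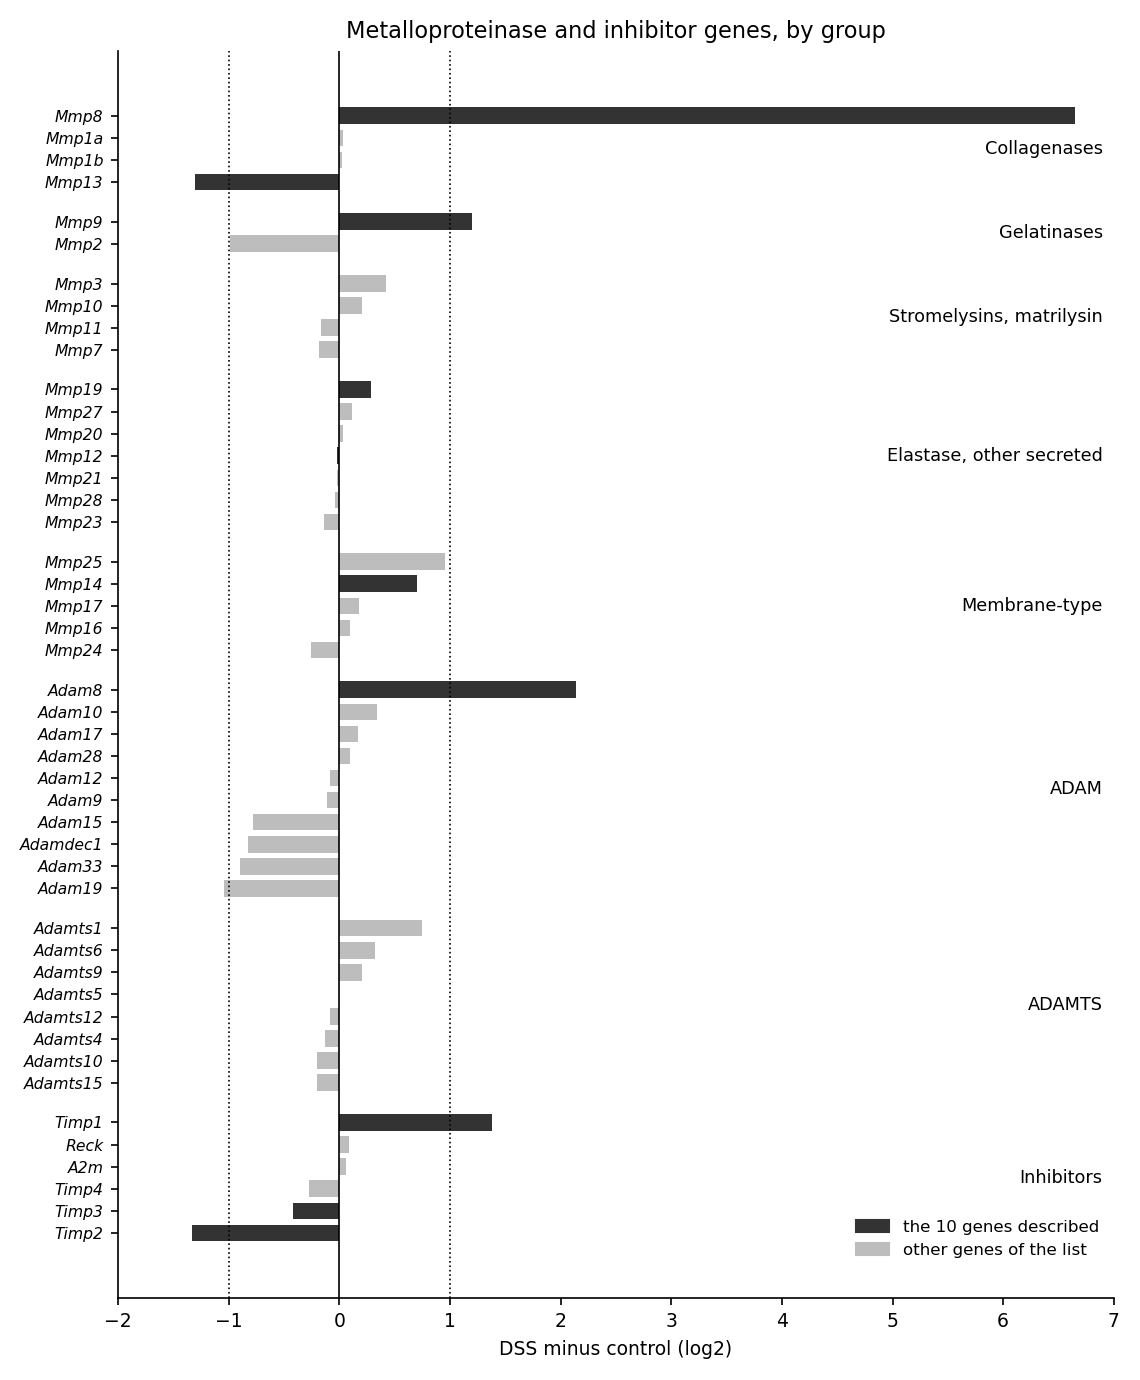
DSS minus control difference (horizontal axis, log2) of each measured gene of the MMP, ADAM, ADAMTS and inhibitor lists, by group; dark bars are the 10 genes described, pale bars the other genes, dotted lines 2-fold. Bars past 2-fold are those of Mmp8, Adam8, Timp1, Mmp9, Mmp13 and Timp2 and, outside the set, that of Adam19 at -1.04.

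Among 9 measured substrates 2 were at least 2-fold higher in DSS. Vcan, the proteoglycan versican, read 9.75 on the DSS array and 5.90 on the control array. Fn1, or fibronectin, read 10.02 on the DSS array and 8.52 on the control array. The collagen genes Col1a1, Col1a2, Col3a1, Col4a1 and Col4a2 had differences of -0.27, -0.16, -0.47, 0.07 and -0.37.

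Markers of other cells differed between the same arrays as the proteases and inhibitors. Of 13 neutrophil markers, 11 were at least 2-fold higher in DSS, with a mean signal of 9.94 on the DSS array and 6.06 on the control array and a median difference of 4.11. Ly6g, which defines mouse neutrophils, read 10.01 on the DSS array and 4.04 on the control array, whereas the granule enzyme genes Elane and Mpo, made early in neutrophil development, read 4.77 and 5.64 on the DSS array and 5.06 and 5.34 on the control array. All 8 measured monocyte markers were higher, with mean signals of 11.08 in DSS and 6.96 in control. Of 11 resident macrophage markers 6 were at least 2-fold lower and 0 higher, with mean signals of 8.42 in DSS and 10.59 in control. Over all genes, 2.25% were at least 2-fold higher in DSS and 1.72% at least 2-fold lower. The marker lists were chosen with earlier results of these arrays known, so their counts describe them and test nothing. The part of neutrophils, monocytes and resident macrophages in the differences of Mmp8, Mmp9, Adam8, Timp1, Mmp13 and Timp2 was not tested. Vcan is itself among the monocyte markers and Lcn2 among the neutrophil markers.

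Fibroblasts, endothelium and epithelium also make MMPs and TIMPs. None of their 20 measured markers was 2-fold apart, but 9 of the 20 lay below the median on both arrays. There a signal cannot be told from background. Fibroblast markers had mean signals of 6.35 on the DSS array and 6.58 on the control array, with Pdgfra, Pdgfrb and Lum below the median on both and the other 5 above it on both. Dcn, or decorin, had the largest difference of that list, at 9.08 on the DSS array and 9.66 on the control array. Endothelial markers had means of 6.33 on the DSS array and 5.95 on the control array. Pecam1 and Cdh5 had the highest differences of that list, 0.85 and 0.59, and Vwf the lowest, -0.09. Epithelial markers had means of 5.77 on the DSS array and 5.59 on the control array. The antigens of the sort were within 2-fold but not equal. Ptprc (CD45), H2-Ab1 (IAb), Itgam (CD11b) and Adgre1 (F4/80) had differences of 0.40, 0.14, 0.60 and -0.82. These 4 were above the median on both arrays, and Itgae (CD103) was below it on both. Adgre1 is also among the resident macrophage markers.

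**Figure D5:**
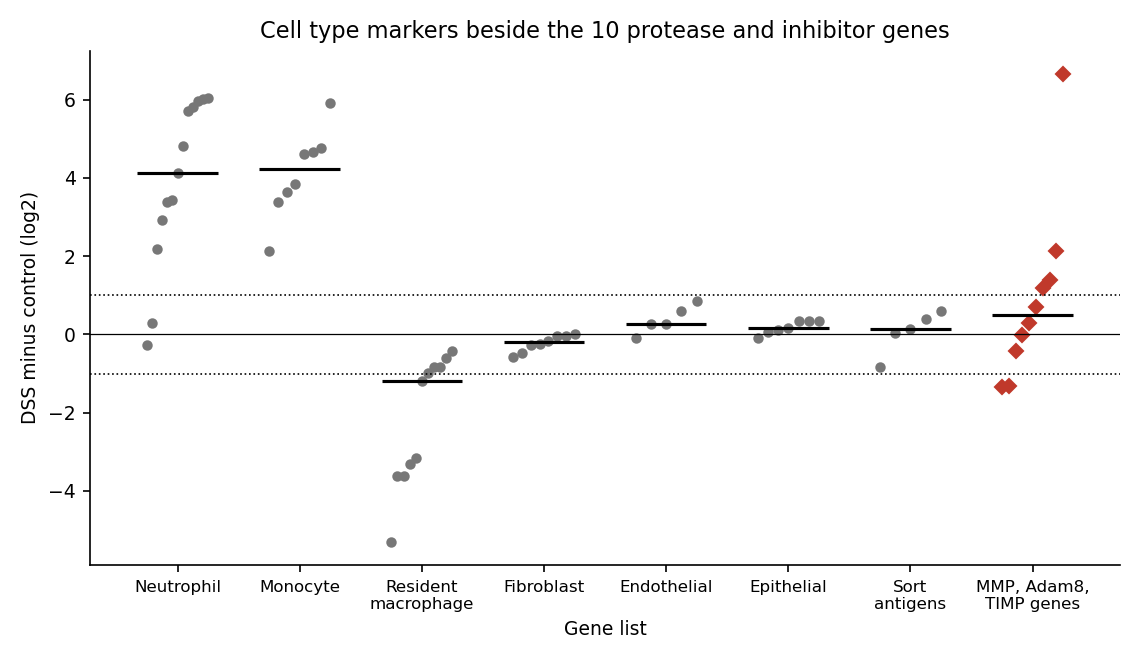
DSS minus control difference (vertical axis, log2) of each measured marker gene (grey points) by list, with the 10 protease and inhibitor genes at the right (red diamonds); short bars are medians and dotted lines 2-fold. Neutrophil and monocyte markers have medians of 4.11 and 4.23 and resident macrophage markers one of -1.20, while the 10 genes spread between -1.33 and 6.65.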

How the data were processed

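RNA of sorted colonic macrophages was hybridised to 2 arrays, 1 for DSS and 1 for control. The authors deposited log2 signals of 35556 probe sets, and RMA (background correction, normalisation and summary of probes) is named in the submitters' processing notes. The genome build was not given in the sources used here, nor were RMA settings. RMA compresses differences of dim probe sets. Genes were named from the platform annotation, which gave 21789 probe sets 1 symbol, 1621 several (not used) and 12146 none; all 10 genes matched RefSeq by Entrez identifier. Where a gene had several probe sets, the one brightest on average over both arrays was taken. Array medians rest on 28939 probe sets, without identifiers below the lowest annotated one. Counts used a fixed size of 2-fold. Members and lists were chosen with earlier results of these data known. Every gene of the set is named, and of the other lists up to 4 with the largest differences plus those a sentence on the set needs; further genes were named after their values were seen. The number of arrays limits the precision, and depth has no meaning here. Only the counting steps were tested on simulated data, with changes of 2 log2 units put into noise around the control array. Genes below that array's median, as Mmp8 and Timp1 were, received no such change. The promoter and rank steps were not tested. Alternatives were the scaling, probe set rule, floor, signal rule, fold size and the mean of the set. Python 3.11.15, numpy 2.4.6, pandas 2.3.3, statsmodels 0.14.6 and matplotlib 3.10.9 were used.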

Additional observations from a re-analysis of the deposited data

How the results depend on the processing

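With 1 array per group, no replicate could be left out, and no paired analysis was possible because there is 1 sample in each group. The counts of 4 higher and 2 lower genes were the same under median centring, under loess centring (span 0.4), with the mean of probe sets, with a floor at the 25th percentile, at 1.5-fold for the lower genes and with the signal rule; at 1.5-fold the count of higher genes was 5. At 3-fold, 2 genes were higher and 0 were lower. The mean difference of the 10 genes was 0.93 against a median of 0.49, which was 0.44 under loess and 0.58 under median centring. Of the 10 differences, only that of Mmp12 changed sign, under median centring, and the largest move, that of Mmp13 under loess centring, was 0.12. The mean of probe sets and the floor changed none of the 10, since each has 1 probe set above the floor. Likewise, the signal rule could change no count, since all 10 reached the median on at least 1 array. A scan or hybridisation batch and the treatment cannot be told apart.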
